A study of Mus musculus with 7 samples.

Results

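*Tbc1d30*, *Necab1*, *Pappa* and *Scx* are 4 of the 21928 mouse genes measured, and all 4 are among the 13630 that passed the filter on low values. They were chosen from the difference between wild-type and *Meioc*-null testes in these same libraries, so their levels and folds are given as a description, with no test. The libraries were made from whole testes of wild-type pups (n = 4) and of pups lacking *Meioc* (labelled *Meioc* KO, n = 3), all of strain C57BL/6N, with 1.5 testes of 1 pup in each library. Every pup received WIN 18,446, which blocks the synthesis of retinoic acid, at 0.1 mg per gram of body weight from P2 to P8, then retinoic acid at 0.0125 mg per gram on P9, and testes were taken 6.75 days after that injection. The treatment lines up spermatogenesis so that testes are rich in preleptotene cells, the germ cells about to begin meiosis, but somatic cells and other germ cells stay in the sample. The allele is a constitutive null, and each value is an average over all cells of the testis.

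The 4 genes encode proteins of unrelated kinds. TBC1D30 has a TBC domain, which speeds the hydrolysis of GTP by Rab proteins; it acts on RAB8, a Rab that carries membrane to the primary cilium. NECAB1 is a calcium-binding protein with an EF hand, best known from neurons. PAPPA is a secreted metalloprotease that cuts the binding proteins IGFBP4 and IGFBP5 and so frees insulin-like growth factors (IGFs); the stanniocalcins STC1 and STC2 inhibit it. SCX is a basic helix-loop-helix (bHLH) transcription factor that marks tendon progenitors, binds DNA with the E proteins TCF3, TCF4 and TCF12, and is also expressed by Sertoli cells, the somatic cells that nurse germ cells. MEIOC is a germ cell protein that works with the RNA helicase YTHDC2 and promotes the switch from mitosis to meiosis.

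Libraries held 12537852 to 20552702 estimated counts. *Meioc* itself was at 466, 658, 662 and 718 CPM (counts per 1000000 of the library total after TMM scaling) in wild-type replicates 1 to 4 and at 399, 299 and 412 CPM in null replicates 1 to 3. Its transcript was thus lower in every null library but still present, at a log2 fold change of -0.76 ± 0.16 (SE; edgeR quasi-likelihood test, Benjamini-Hochberg adjusted p = 0.0207); without wild-type replicate 2, 3 or 4 or null replicate 2 or 3 the test did not pass, with an adjusted p of at most 0.0638. Of all genes tested, 11.1% were called at an adjusted p under 0.05, with 3.33% higher and 7.77% lower in the null; by DESeq2, 17.1% were called. Every null library lay above every wild-type library for 10.8% of the genes tested.

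Markers of cell types moved with genotype as well. Of 86 tested markers, 19 were called by edgeR (22.1%, against 11.1% of all genes tested). Of these 19, 8 were genes of meiotic prophase. Of 10 genes of meiotic prophase, 8 fell in the null testes, and their summed level was 2532 to 3720 CPM in the wild type and 1163 to 1421 CPM in the null. Of 8 tested markers of undifferentiated spermatogonia, 3 rose, *Zbtb16*, *Lin28a* and *Nanos3*, and the list summed to 208 to 255 CPM in the wild type and to 315, 488 and 340 CPM in null replicates 1 to 3. *Zbtb16* was not called without wild-type replicate 2, 3 or 4 or null replicate 3 (adjusted p up to 0.0661), and *Nanos3* not without wild-type replicate 2, 3 or 4 or null replicate 2 or 3 (up to 0.114). Sertoli cell markers summed to 7788 to 8030 CPM in the wild type and 7475 to 8682 CPM in the null, with 1 of 19 higher and 1 lower by edgeR. At an unadjusted p under 0.05 by edgeR, 2 were higher and 4 lower. By DESeq2 these counts were 1 and 3, and by limma on log2(TPM + 1) 5 and 0. The lists for Leydig cells (398.7 to 702 against 442 to 757 CPM), peritubular myoid cells (540 to 620 against 513 to 597 CPM), fibroblasts (1404 to 1878 against 1581 to 2237 CPM), endothelial cells (87.0 to 103 against 87.7 to 106 CPM) and macrophages (391 to 405 against 364 to 470 CPM) overlapped between the groups in their summed level. By edgeR, 1 of 8 Leydig and 1 of 7 endothelial markers were lower and 1 of 6 myoid markers was higher. No fibroblast or macrophage marker was called by edgeR. With limma on log2(TPM + 1), 3 Leydig, 2 myoid, 2 fibroblast, 1 endothelial and 3 macrophage markers were higher, and 1 Leydig marker was lower. Differentiating spermatogonia (537 to 733 against 371 to 466 CPM) and the general germ cell list (1930 to 2084 against 1534 to 1577 CPM) did not overlap in their summed level and were lower in the null. Of the 6 tested genes in each list, 1 and 2 were called lower by edgeR, and 0 higher. With limma on log2(TPM + 1), 1 was higher and 0 lower in the former list, and 1 and 1 in the latter. Round spermatid markers were near 0, at 3.77 to 6.62 against 5.20 to 6.76 CPM. In whole testes, a change in the number of cells of a type and a change in the RNA of each such cell cannot be told apart, and the part of these markers in the levels of the 4 genes was not tested.

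*Tbc1d30* was low in the wild type, at 7.64, 6.06, 5.39 and 7.14 CPM, and reached 12.2, 23.7 and 14.2 CPM in the null libraries. The groups did not overlap, and the lowest null library was 1.595 times the highest wild-type library. Null replicate 2 stood above the other null libraries, and the null group spread more (36.9% of its mean, SD) than the wild type (15.6%). The mean went from 6.56 ± 1.02 to 16.7 ± 6.15 CPM (SD, n = 4 and 3), which is 2.54-fold on the means and a fitted log2 fold change of 1.34. Without null replicate 2 the fitted value was 1.01, and without null replicate 1 it was 1.52. These levels rest on 80 to 328 estimated counts a library, for which counting error alone is 11.2% to 5.52%.

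*Necab1* lay at 11.3, 9.69, 6.40 and 8.45 CPM in the wild type and at 14.8, 22.5 and 27.8 CPM in the null. Null replicate 1 was only 1.31 times wild-type replicate 1, whereas null replicate 3 was the highest. The means were 8.97 ± 2.09 and 21.7 ± 6.49 CPM, a 2.42-fold difference with a fitted log2 fold change of 1.28. Leaving out null replicate 3 gave 1.06 and leaving out null replicate 1 gave 1.49.

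*Pappa* was the most variable of the 4 in the wild type. Its wild-type levels were 29.5, 34.7, 16.2 and 11.9 CPM, a 2.91-fold range within one genotype, and its null levels were 43.1, 77.3 and 45.0 CPM. The gap between the groups was the narrowest of the 4 genes: null replicate 1 was 1.24 times wild-type replicate 2. The means were 23.1 ± 10.8 and 55.1 ± 19.2 CPM, 2.39-fold apart, with a fitted log2 fold change of 1.26 that became 0.94 without null replicate 2 and 1.53 without wild-type replicate 2.

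*Scx* was the steadiest. It stood at 7.17, 10.03, 8.62 and 7.497 CPM in the wild type and at 17.9, 19.1 and 20.3 CPM in the null. The 3 null libraries lay within 1.13-fold of each other, and the lowest of them was 1.78 times the highest wild-type library, the widest gap of the 4 genes. Its means were 8.33 ± 1.29 and 19.1 ± 1.20 CPM, 2.29-fold apart. The fitted log2 fold change of 1.20 moved only between 1.13 and 1.30 as each library was left out.

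**Figure D1:**
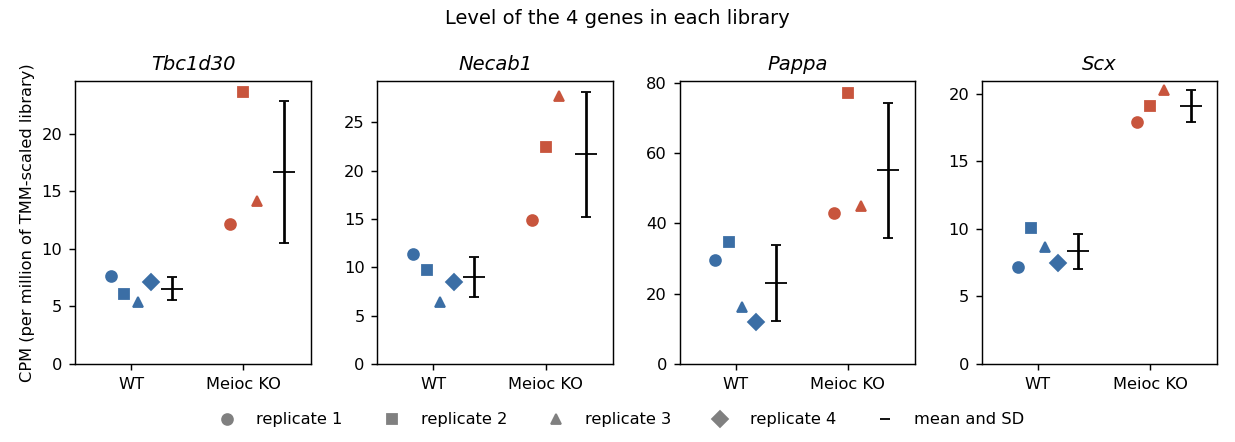
Level of each gene in CPM (vertical axes from 0) in the wild-type (WT, blue) and *Meioc*-null (*Meioc* KO, red) libraries; symbols give the replicate number and bars the group mean with its SD. The null libraries of *Scx* sit together between 17.9 and 20.3 CPM, while null replicate 2 stands apart for *Tbc1d30* (23.7 CPM) and *Pappa* (77.3 CPM).

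The 4 genes were taken from 367 genes that were called, averaged 10 CPM or more in the null group and had every null library above every wild-type library. Ranked by fold, they held places 2 to 5. Above them was *Gm10184*, a predicted gene on chromosome 17 at 0 counts in all 4 wild-type libraries and at 126, 114 and 115 CPM in the null. Just below came *Hydin*, which encodes a protein of motile cilia, at 11.7, 10.4, 9.43 and 8.15 CPM in the wild type and at 13.3, 33.6 and 20.2 CPM in the null, a fitted log2 fold change of 1.17 against 1.20 for *Scx*. Without the demands for a call and for separated groups, *Tbc1d30*, *Necab1*, *Pappa* and *Scx* ranked 12, 14, 15 and 16 by fold. That ranking was among the 10485 genes with a mean of 10 CPM or more in either group. Among all 13630 genes tested, the 4 genes ranked 45, 52, 54 and 65 in the same order.

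CPM does not allow for transcript length, so the genes were set against each other in TPM. TPM is a level per effective transcript length, which kallisto estimated with a correction for sequence bias. *Scx* had the highest TPM of the 4 in each of the 7 libraries, at 10.5 ± 0.88 in the wild type and 29.4 ± 2.95 in the null. *Necab1* came next in each of the 7, at 4.71 ± 1.78 and 13.2 ± 4.34 TPM. *Pappa*, at 2.85 ± 1.36 and 8.21 ± 3.61 TPM, was above *Tbc1d30*, at 1.46 ± 0.30 and 4.40 ± 2.01 TPM, in 6 libraries but not in wild-type replicate 4 (1.43 against 1.53 TPM). *Scx* exceeded *Necab1* by 1.40- to 3.65-fold within a library. *Necab1* exceeded *Pappa* by as little as 1.06-fold, in wild-type replicate 2, so these neighbours in the order were not clearly apart. In that library the effective length was 3311 for the long *Necab1* transcript of 4922 bases. It was 12563 for the *Pappa* transcript of 11027 bases. The order of *Necab1* and *Pappa* thus rests on the effective lengths. In that library *Necab1* had 139 estimated counts and *Pappa* 498, so per annotated base *Pappa* was the higher. Summed over transcripts, *Pappa* was also higher per annotated base in wild-type replicate 3 and null replicates 1 and 2. *Necab1* was higher in wild-type replicates 1 and 4 and null replicate 3. The whole scale of log2(TPM + 1) was shifted upwards in the null, by a median of 0.23 over all genes tested. Relative to that shift, the differences on the log2(TPM + 1) scale were 0.86 for *Tbc1d30*, 1.09 for *Necab1*, 1.04 for *Pappa* and 1.17 for *Scx*, so the gene that came first by CPM came last here. With a pseudocount of 0.1 the same differences were 1.22, 1.24, 1.30 and 1.23, nearly equal, so their order depends on the pseudocount.

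**Figure D2:**
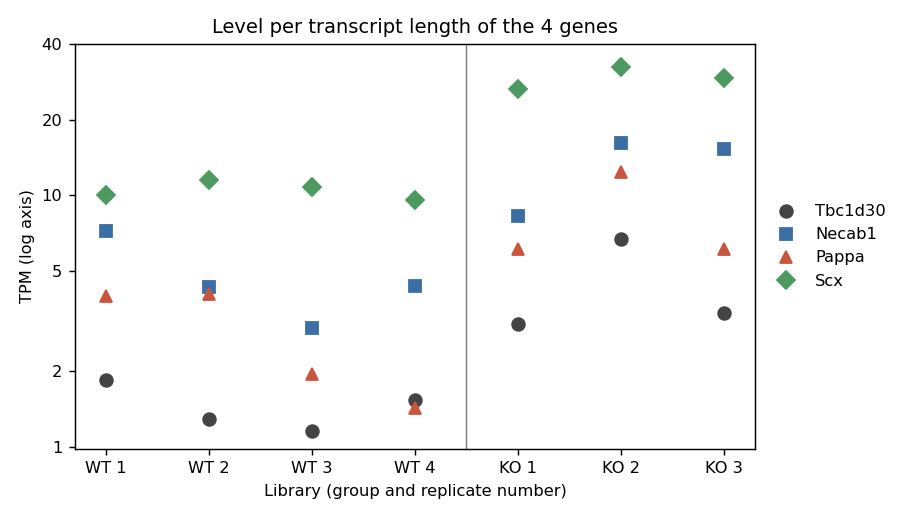
TPM of the 4 genes (vertical log axis) in each library, wild type (WT) to the left of the line and *Meioc*-null (KO) to the right. *Scx* is highest in every library, and *Pappa* falls below *Tbc1d30* only in wild-type replicate 4.

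Levels within the null group did not follow one order. Null replicate 2 was highest for *Tbc1d30* and *Pappa*, and null replicate 3 for *Necab1* and *Scx*. Among the 448 called genes with all null libraries above all wild-type libraries, null replicate 2 was highest for 65.0%, null replicate 3 for 25.9% and null replicate 1 for 9.15%. Null replicate 2 was also the library in which long transcripts ran high. The 3408 genes with the longest transcripts, from 4147 bases, had a median log2 level 0.14 above the genes' own means there, against -0.06 to -0.00 in the other 6 libraries, and the 3410 with the shortest, up to 1648 bases, were at -0.14. *Pappa*, *Tbc1d30* and *Necab1* belong to the long set, with 11027, 5695 and 4922 bases, while *Scx*, with 1136 bases, belongs to the short one. With each library's trend with transcript length removed, an alternative chosen after seeing the data, the difference of mean log2(CPM + 1) went from 1.18 to 1.16 for *Tbc1d30*, from 1.17 to 1.12 for *Necab1*, from 1.29 to 1.23 for *Pappa* and from 1.11 to 1.17 for *Scx*.

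The genes whose pattern over the 7 libraries was most like each member's were found by the root mean square difference of log2(CPM + 1) profiles, each centred on its own mean, among 10484 other genes. For *Tbc1d30* these were *Erbb4*, a receptor of neuregulins (0.13), *Fbxo41* (0.19) and *Dgki*, a diacylglycerol kinase (0.19). *Erbb4* lay at 11.1, 9.48, 8.35 and 10.6 CPM in the wild type and at 15.9, 27.3 and 17.6 CPM in the null, and so shared the peak in null replicate 2. For *Necab1* they were *Chdh*, a choline dehydrogenase of mitochondria (0.21), *Myh6*, a cardiac myosin heavy chain (0.24), and *Ildr2* (0.25). For *Pappa* they were *Tub* (0.30), the dynein heavy chain gene *Dnah14* (0.40) and *Hydin* (0.40), so that its nearest profiles were further away than those of the other members. For *Scx* they were *Tnfrsf12a*, the receptor of the cytokine TWEAK (0.22), *Erbb2*, the receptor tyrosine kinase that pairs with ERBB4 (0.23), and *Ildr2* (0.23). Between members the difference ran from 0.30, for *Tbc1d30* and *Necab1*, to 0.49, for *Pappa* and *Scx*, and *Tbc1d30* stood at place 20 among the genes nearest to *Necab1*. The 7 libraries are the same for every gene, and these distances are a description.

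*Tbc1d30*, *Pappa* and *Scx* each have 1 transcript in the deposited data, and *Necab1* has 2. The deposited transcripts are ENSMUST00000064107 for *Tbc1d30*, ENSMUST00000084501 for *Pappa* and ENSMUST00000043089 for *Scx*, and a long (ENSMUST00000041606) and a short one (ENSMUST00000108273) for *Necab1*. The *Necab1* transcripts share a coding length of 1056 bases but differ outside it: the long one has 13 exons and 4922 bases, and the short one has 14 exons and 2135 bases. The long transcript held 4.71, 4.32, 2.77 and 3.38 TPM in the wild type and at 7.53, 11.5 and 13.9 TPM in the null, so it did not overlap between the groups. The short one held 2.50, 0, 0.20 and 0.97 TPM in the wild type and at 0.72, 4.72 and 1.37 TPM in the null, with overlap. As a share of the gene's TPM, the short transcript made up 15.9% ± 15.6 (SD, n = 4) in the wild type and 15.6% ± 11.7 (n = 3) in the null, a difference far smaller than the spread. The share rests on few reads: in wild-type replicate 2 it was 0 of 139 estimated counts, which allows up to 2.16% of the gene's counts (3 counts, counting error only), and in null replicate 2 it was 43.9 of 311. The replicate with the highest wild-type level of *Necab1*, replicate 1, owed 34.7% of its TPM to the short transcript.

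**Figure D3:**
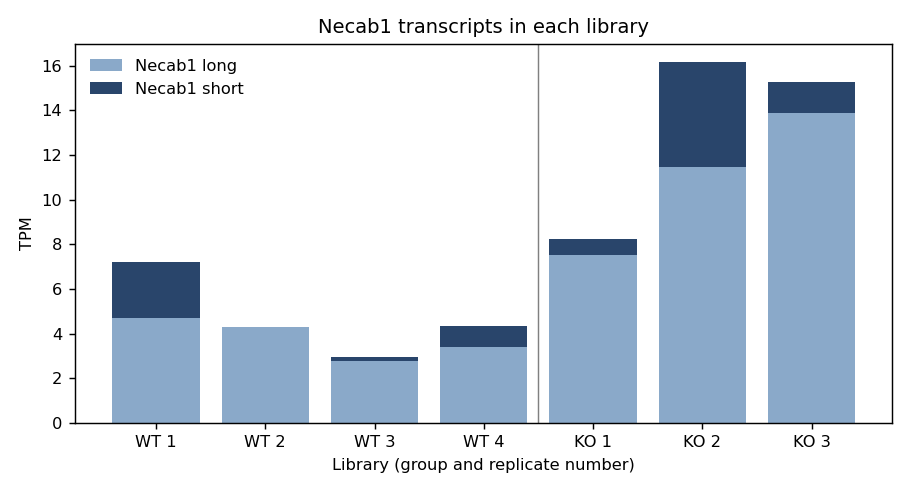
TPM of the 2 *Necab1* transcripts in each library, stacked from 0; the bar height is the TPM of the gene. The long transcript (Necab1 long, light) is between 2.77 and 4.71 TPM in the wild type (WT) and between 7.53 and 13.9 TPM in the null (KO), while the short one (dark) varies within both groups.

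On GRCm38, *Tbc1d30* spans 121263820 to 121351278 of chromosome 10 on the minus strand, and *Necab1* 14952245 to 15149794 of chromosome 4, also on the minus strand. The pseudogene *Gm4478* and the antisense gene *Gm48435* overlap *Tbc1d30*, and the antisense genes *Gm11837* and *Gm11844* overlap *Necab1*. These have no values in the data, which cover protein-coding transcripts. *Pappa* lies on the plus strand of chromosome 4, from 65124174 to 65357509. *Scx* is on the plus strand of chromosome 15, from 76457452 to 76459458, within intron 3 of the 15 introns of *Bop1*, a ribosome biogenesis gene on the opposite strand. *Bop1* stood at 77.5 ± 2.80 CPM in the wild type and 70.7 ± 5.66 CPM in the null, and counting used strand. Its log2 fold change was -0.13 ± 0.08 (edgeR adjusted p = 0.292), below 0 where that of *Scx* was above; on the log2(TPM + 1) scale it was 0.10 (limma adjusted p = 0.522). None of the neighbours given here was called by edgeR: *Wif1* (-0.17, adjusted p = 0.771) beside *Tbc1d30*, *Pip4p2* (0.12, 0.42) and *Tmem64* (0.10, 0.324) beside *Necab1*, and *Mroh1* (-0.30, 0.184) and *Hsf1* (-0.20, 0.22) beside *Scx*, with Benjamini-Hochberg adjustment. At an unadjusted p under 0.05 none of these 6 genes passed, nor did any by DESeq2. With limma on log2(TPM + 1), the neighbours of *Necab1* were called, *Pip4p2* at 0.36 (adjusted p = 0.0461) and *Tmem64* at 0.33 (0.0387), against the median of 0.23 over all genes on that scale, and the other 4 were not. The neighbours of *Pappa*, *Tnc* and *Astn2*, did not pass the filter on low values, with a mean of 1.87 CPM (wild type) and 1.28 CPM (null) for *Tnc* and of 1.27 and 0.97 CPM for *Astn2*.

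**Figure D4:**
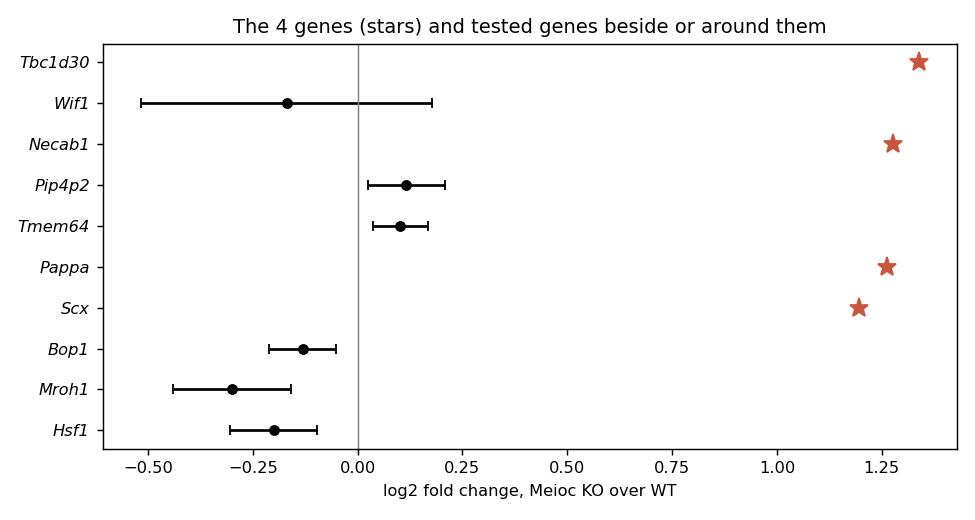
Log2 fold change of *Meioc*-null over wild type for each of the 4 genes (stars, no test) and for 6 tested genes beside them or, for *Bop1*, around them (points, bars are the SE). The stars lie between 1.20 and 1.34 and the points between -0.30 and 0.12; the neighbours of *Pappa* were too low to be fitted.

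The members differed in length and base composition; GC content and motifs were read from the GENCODE vM21 transcripts, which for *Scx* is a version of 1035 bases rather than the 1136 bases that were quantified. *Pappa*, *Necab1* and *Tbc1d30* span 233336, 197550 and 87459 bases of genome (percentiles 96.0, 94.8 and 84.0 of genes tested), and *Scx* spans 2007 bases (percentile 3.10). GC content of the transcript was 39.5% for *Necab1* (percentile 4.59 of 13630 genes), 46.1% for *Pappa*, 51.0% for *Tbc1d30* and 63.6% for *Scx* (percentile 99.1). The letters ATTTA, the core of AU-rich elements, were searched on the transcript strand and occur in 75.8% of the transcripts of genes tested. They occur 14 times in *Pappa*, 7 times in *Necab1*, 5 times in *Tbc1d30* and not in *Scx*, which per base of transcript puts the 4 at percentiles 69.0, 73.7, 54.7 and 12.1. GGACT, a frequent context of the m6A mark, occurs in 88.8% of transcripts, and in 13, 2, 6 and 1 places in these 4, at percentiles 58.0, 16.4, 50.7 and 45.7 per base.

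For the pathway of each member, the other genes were compared in the same edgeR fit, with Benjamini-Hochberg adjustment over all 13630 genes. Of 116 tested genes in 9 lists, 11 were called (9.48%), close to the 11.1% of all genes. Of the 11, 5 were higher and 6 lower in the null, but the balance of calls moved with the scaling: 10 higher and 5 lower without scaling beyond library size, and 20 higher and 2 lower with limma on log2(TPM + 1). None of the 11 changed sign under these scalings, and the lower calls that ended on the TPM scale are given with their genes.

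Among TBC-domain Rab GAPs, the family of TBC1D30, 38 other members were tested; 2 rose, 2 fell and 34 were not called (6 higher and 0 lower with limma on log2(TPM + 1)), with a median log2 fold change of 0.06 against 0.01 for all genes. *Tbc1d2b* rose from 56.1 ± 2.66 to 82.1 ± 10.6 CPM (adjusted p = 0.0142; 0.0582 without null replicate 3). *Grtp1* rose from 6.36 ± 0.54 to 9.13 ± 0.92 CPM (adjusted p = 0.0458), and leaving out any single library ended this call, with adjusted p from 0.052 to 0.128. *Tbc1d10a* fell by 0.73 and *Sgsm3*, whose product acts on endosomal Rabs, fell by 0.56 on the log2 scale (adjusted p = 0.0385 and 0.0412); both calls were lost without wild-type replicate 2, 3 or 4 or null replicate 2 or 3 (adjusted p up to 0.126 and 0.135). On the log2(TPM + 1) scale both calls also ended, at -0.42 (limma adjusted p = 0.0968) and -0.30 (0.159), and that of *Sgsm3* ended without scaling beyond library size (edgeR adjusted p = 0.051).

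In the RAB8 module of the primary cilium, none of the 14 genes tested rose by edgeR (1 was higher at an unadjusted p under 0.05, 1 by DESeq2 and 2 by limma on log2(TPM + 1)) and 2 fell. *Rab8a*, the substrate of TBC1D30, was at 98.5 ± 5.56 CPM in the wild type and 86.7 ± 7.22 CPM in the null (log2 fold change -0.18 ± 0.09, adjusted p = 0.181). *Rab8b* was at 40.2 ± 2.14 and 36.5 ± 0.47 CPM (-0.14 ± 0.08, 0.264 by edgeR). *Cep290*, a gene of the ciliary transition zone, fell from 157 ± 17.1 to 96.5 ± 9.84 CPM (adjusted p = 0.0106), a call that held without each library. *Ehd3*, a membrane-shaping protein of early ciliary vesicles, fell from 19.7 ± 1.55 to 11.7 ± 1.55 CPM (adjusted p = 0.0127; 0.0591 without null replicate 3).

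Of 17 other NECAB and EF-hand genes tested, 1 rose, none fell by edgeR (3 were lower at an unadjusted p under 0.05, 1 by DESeq2 and 0 by limma on log2(TPM + 1)), and the median log2 fold change was -0.11. The paralogs of *Necab1* had lower values in the null and were not called: *Necab2* was at 7.33, 3.97, 3.37 and 3.12 CPM in the wild type and at 3.30, 2.67 and 1.79 CPM in the null (-0.76 ± 0.34, edgeR adjusted p = 0.166). *Necab3* was at 4.10, 6.76, 4.65 and 3.72 CPM against 3.09, 2.17 and 3.74 CPM (-0.66 ± 0.27, edgeR adjusted p = 0.128). *Ncs1*, a neuronal calcium sensor, rose from 6.22 ± 1.03 to 9.48 ± 0.28 CPM (adjusted p = 0.0393), and this call was lost on leaving out any single library (0.0509 to 0.112).

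Around PAPPA, no inhibitor or binding protein was called. Of the inhibitors, *Stc1* was at 9.30, 15.2, 3.37 and 12.1 CPM in the wild type and at 15.7, 19.0 and 15.5 CPM in the null (0.74 ± 0.36, edgeR adjusted p = 0.205), and *Stc2* was at 9.14, 13.3, 11.7 and 9.81 CPM against 15.2, 9.97 and 13.8 CPM (0.25 ± 0.18, 0.385). Neither *Stc1* nor *Stc2* passed at an unadjusted p under 0.05 or by DESeq2. The paralog *Pappa2* and the inhibitor *Prg2* were below the filter, at no more than 0.46 CPM on average in either group. Of 6 tested IGF-binding proteins none was called by edgeR; *Igfbp3* alone passed an unadjusted p under 0.05 and DESeq2 (25.1 ± 4.00 against 38.1 ± 12.8 CPM, edgeR adjusted p = 0.0843, DESeq2 adjusted p = 0.0287). With limma on log2(TPM + 1), 2 of the 6 were higher. The substrates of PAPPA differed in level: *Igfbp4* was at 92.2 ± 1.95 and 97.8 ± 3.41 CPM (0.09 ± 0.07, edgeR adjusted p = 0.429), and *Igfbp5* at 11.4, 18.3, 9.70 and 23.5 CPM against 5.91, 6.07 and 14.8 CPM (-0.82 ± 0.39, 0.189).

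Among 7 IGF ligands, receptors and adaptors, none rose by edgeR, at an unadjusted p under 0.05 or by DESeq2, and *Igf2r* fell. *Igf2r*, the receptor that carries IGF2 to lysosomes, went from 334 ± 19.6 to 249 ± 7.31 CPM (-0.42 ± 0.07, adjusted p = 0.014), and the call was lost without wild-type replicate 3 or null replicate 3 (adjusted p up to 0.0637) and on the log2(TPM + 1) scale, where the value was -0.17 (limma adjusted p = 0.197). *Igf1* was at 165 ± 10.6 and 168 ± 32.5 CPM (0.03 ± 0.12, edgeR adjusted p = 0.899) and *Igf2* at 42.8 ± 2.43 and 47.7 ± 5.36 CPM (0.16 ± 0.10, 0.305). *Igf1r* was at 129 to 153 CPM in the wild type and at 138, 230 and 166 CPM in the null (0.31 ± 0.15, 0.202), highest in null replicate 2 like *Pappa*.

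None of the 11 tested bHLH partners and relatives of SCX was called by edgeR; 2 were higher and 3 lower at an unadjusted p under 0.05, 1 and 1 by DESeq2, and 3 and 0 by limma on log2(TPM + 1). The E protein genes were at 86.6 ± 12.3 and 99.5 ± 12.8 CPM for *Tcf3* (edgeR adjusted p = 0.316), 92.2 ± 6.38 and 118 ± 17.5 CPM for *Tcf4* (0.057; DESeq2 0.0167), and 211 ± 15.6 and 181 ± 12.1 CPM for *Tcf12* (0.113). *Id1*, whose product keeps E proteins from DNA, was at 16.6 ± 2.18 and 12.1 ± 0.79 CPM (-0.45 ± 0.13, 0.0557; DESeq2 0.0338). *Tcf15*, the closest relative of *Scx*, was at 1.20 ± 0.20 and 2.01 ± 0.40 CPM (0.73 ± 0.26, edgeR adjusted p = 0.0911).

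TGF-beta signalling is known to induce *Scx* in tendon. Of 12 of its genes tested, 2 rose and 1 fell by edgeR, which called 11.1% of all genes tested. By DESeq2, 3 were higher and 1 lower, and by limma on log2(TPM + 1) 5 and 0. *Smad3*, a transducer of the signal, was at 57.0, 64.5, 63.0 and 59.2 CPM in the wild type and at 69.4, 119 and 111 CPM in the null (0.71 ± 0.16, edgeR adjusted p = 0.0242). The co-receptor gene *Tgfbr3* rose from 88.7 ± 8.34 to 120 ± 1.799 CPM (adjusted p = 0.0192), and the receptor gene *Tgfbr1* fell from 278 ± 12.4 to 215 ± 14.8 CPM (adjusted p = 0.0208). The calls of *Smad3* and *Tgfbr1* were lost without wild-type replicate 2, 3 or 4 or null replicate 2 or 3, and that of *Tgfbr3* without wild-type replicate 2 or 3 or null replicate 2 or 3 (adjusted p up to 0.0914, 0.0709 and 0.0694). On the log2(TPM + 1) scale *Tgfbr1* was at -0.13 and not called (limma adjusted p = 0.199). Of 9 tested genes of tendon and matrix none was called by edgeR; 2 were higher at an unadjusted p under 0.05, 1 by DESeq2 and 1 by limma on log2(TPM + 1). The tendon genes *Tnmd* (0.09 CPM in both groups) and *Mkx* (0.94 and 1.05 CPM) did not pass the filter. *Egr1*, which also acts in tendon, was at 9.69 ± 2.08 and 17.7 ± 9.51 CPM (edgeR adjusted p = 0.137).

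**Figure D5:**
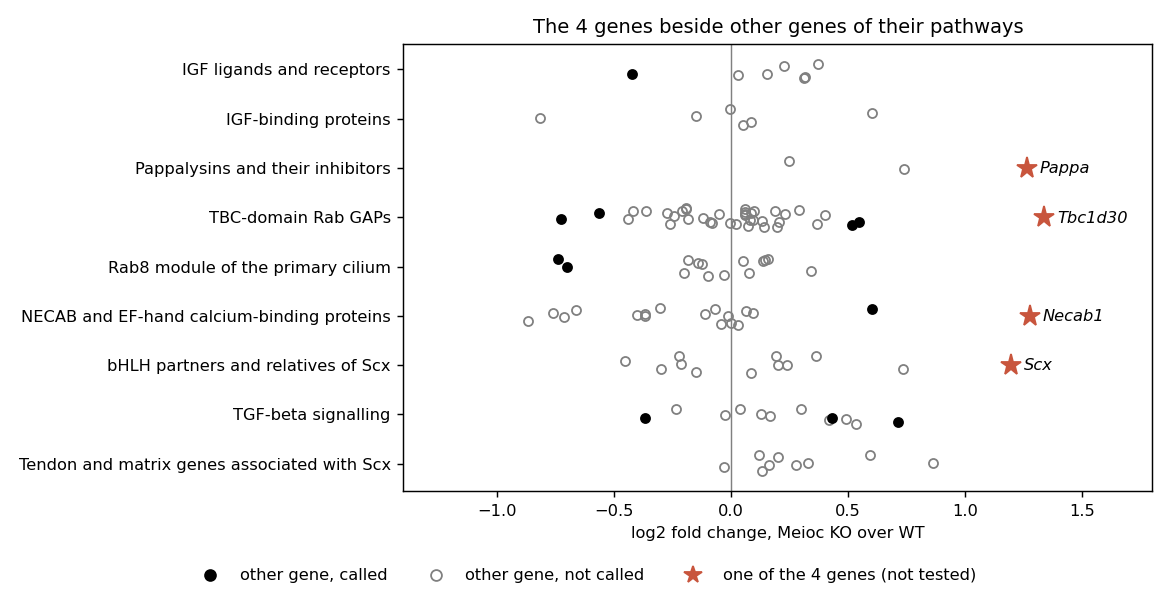
Log2 fold change of *Meioc*-null over wild type for the tested genes of 9 pathway lists; filled points were called by edgeR, open points were not, and stars are the 4 genes, which were not tested. The stars lie between 1.20 and 1.34, and the called genes between -0.74 and 0.71; points are spread vertically only to separate them.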

How the data were processed

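RNA was depleted of ribosomal RNA and sequenced with strand, with 1 library per pup. The authors trimmed reads with cutadapt 1.8 and ran kallisto 0.44.0 on the GENCODE Basic transcripts of mm10. For each protein-coding transcript they deposited its length, its effective length, an estimated count and a TPM renormalized over those transcripts. TPM keeps no depth, and a shift in a few abundant short transcripts moves all other TPM.

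Transcripts were matched to genes in GENCODE vM21 on GRCm38 (119 of 43139 were not matched, with 0.247% to 0.282% of counts, and were left out of library sizes and tests). Counts were summed by gene, rounded, normalized by TMM and tested with edgeR 4.0.16 in R 4.3.3 over the 13630 genes whose TPM reached 1 in 3 or more libraries, with Benjamini-Hochberg adjustment; a gene was called at an adjusted p under 0.05. All 7 libraries entered, grouped by the genotype in their labels, without covariates. At this depth 3 counts are 0.151 to 0.236 CPM. No pair of libraries agreed within counting noise, the smallest mean squared difference being 7.89 times that noise. By the same measure, wild-type replicate 1 was nearer to null replicate 1 (11.4) than to wild-type replicates 2, 3 and 4 (14.1, 19.8 and 23.4). Intervals and floors cover counting error only. The fits were run on simulated counts with 200 genes changed 2-fold, of which edgeR called 190, with 7 other genes. Every simulated gene had the same spread between replicates, so this run says little about genes or libraries that vary as these do.

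The 4 genes and the gene lists were chosen with earlier results of these data known. Genes are named if they are one of the 4, called genes or direct partners in a list, neighbours, the 3 nearest profiles, next in rank, or *Meioc*; *Igfbp3*, *Egr1*, *Tnmd*, *Mkx* and the marker genes were named after their values were seen. Alternatives were RLE, no scaling, DESeq2 1.42.0, limma 3.58.1 on log2(TPM + 1) and log2(TPM + 0.1), no low-count filter, filterByExpr, a replicate block, removal of the length trend and dropping 1 library at a time. No promoter or protein sequence of the 4 genes was used here. The spike-ins were not used, and 1 neighbouring gene is not reported here.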

Additional observations from a re-analysis of the deposited data

Results flagged for a closer look

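Of 56 sets of 4 wild-type values examined, 2 held a library far from the other 3 by Dixon's criterion, which chance alone gives in about 1 of 20 sets. *Fbxo41*, a near profile of *Tbc1d30*, was at 15.6 CPM in wild-type replicate 1 against 10.7 to 11.3 CPM in the others. *Myh6*, a near profile of *Necab1*, was at 17.7 CPM in wild-type replicate 1 against 14.2 to 14.3 CPM. None of the 4 genes themselves had a wild-type library so far out.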

How the results depend on the processing

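The log2 fold changes of the 4 genes kept their sign in 64 combinations of gene and alternative, as the choice of genes makes likely. Of these combinations, 62 moved by less than the spread between replicates. Leaving out 1 library can hardly move a fold by more than that spread, so this count says little about stability. *Scx* went from 1.20 to 1.40 with log2(TPM + 1) and 1.47 with log2(TPM + 0.1), where the median over genes tested stood at 0.23 and 0.25. Leaving out 1 library gave 1.01 to 1.52 for *Tbc1d30*, 1.06 to 1.49 for *Necab1*, 0.94 to 1.53 for *Pappa* and 1.13 to 1.30 for *Scx*, and the share of the short *Necab1* transcript 9.67% to 21.2% in the wild type and 8.84% to 19.1% in the null; as a share of estimated counts it was 7.68% and 7.21%. Counts of calls moved more: over all genes 1513 became 2331 with DESeq2, 2522 and 2506 with the 2 TPM scales, and 131 to 2172 on leaving out a library; the 11 pathway calls became 19 with DESeq2, 22 with each TPM scale (20 higher and 2 lower in the null, against 5 and 6) and 1 to 19 on leaving out a library; the 19 marker calls became 34 with each TPM scale (24 higher and 10 lower, against 5 and 14) and 9 to 24 on leaving out a library. The share of calls higher in the null was 30.0%, but 52.5% without scaling and 82.6% and 82.3% with the TPM scales. Among the 11 named pathway genes, 62 of 165 combinations of gene and alternative lost the call and 0 reversed. The causes were not tested.

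The labels do not say whether a replicate number marks a shared litter or day, and same-numbered libraries did not deviate together (correlations of -0.06, -0.10 and -0.23 over genes for numbers 1 to 3; none correlated best with its own number). These correlations rest on deviations from the means of small groups. By mean squared difference, the nearest pair across the groups was same-numbered, wild-type replicate 1 and null replicate 1 (11.4 times counting noise). Wild-type replicate 1 was also the wild-type library nearest to null replicates 2 and 3 (29.7 and 18.7). With a replicate block, which drops wild-type replicate 4 from the contrast, 109 genes, 1 pathway gene and 8 markers were called, and the 4 genes had log2 fold changes of 1.35, 1.23, 1.06 and 1.16 in the order *Tbc1d30*, *Necab1*, *Pappa*, *Scx*. At 80 to 512 counts, *Tbc1d30*, *Necab1* and *Scx* have a counting error of 4.42% to 11.2% a library.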
